A study of Homo sapiens with 4 samples.

Results

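The 34 genes described here act in homologous recombination and in the Fanconi anaemia pathway. They were taken by name from a table of RNA-seq counts that lists 40205 gene symbols, and all 34 were found there and passed the filter on low counts. By role they comprise the Fanconi core complex (FANCA, FANCB, FANCC, FANCE, FANCF, FANCG, FANCL and FANCM), the enzyme and substrates of its ubiquitin step (UBE2T, FANCD2, FANCI), BRCA1 with its partner BARD1, the mediators BRCA2, PALB2 and RAD52, the paralogue group (RAD51B, RAD51C, RAD51D, XRCC2, XRCC3), the strand-invasion factors RAD51AP1, RAD54L and RAD54B, the helicases BRIP1 and BLM, the end-resection factors EXO1, RBBP8, MRE11A, RAD50 and NBN, and the nuclease genes EME1, MUS81 and SLX4. The cells were A549, a human lung adenocarcinoma line, grown with serum and harvested 24 h after transfection by Lipofectamine iMAX. In 2 libraries, Knockdown-670 and Knockdown-732, the small interfering RNA (siRNA) targeted the long non-coding RNA SBF2-AS1. In the other 2 libraries, NC-1 and NC-2, it was a negative control. All 4 libraries thus share the cell line and the transfection, and the labels do not say what the suffixes of the knockdown names stand for, nor whether libraries of a group came from separate cultures.

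Homologous recombination repairs a double-strand break, or a broken replication fork, by copying the sister chromatid. Nucleases first resect the end, BRCA1, PALB2 and BRCA2 then ready the exposed strand for pairing, the paralogue complexes and RAD54 proteins help it find and invade the matching duplex, and helicases or nucleases take the joined molecules apart. The Fanconi anaemia pathway acts where both strands are linked chemically: its core complex ubiquitinates FANCD2 and FANCI, which directs unhooking of the crosslink and hands the resulting break to the same recombination machinery. Many of these genes are transcribed most in S and G2 phase, when a sister chromatid is at hand, and several are targets of E2F transcription factors.

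Promoter windows are shown first, as a description of sequence. E2F-type motifs were searched because several of these genes are targets of E2F factors. E2F binding and activity were not measured, and a part of E2F in the changes below was not tested. RefSeq windows on GRCh38.p14, from 250 bases before to 50 bases after a start site, were at hand for 31 of the 34 genes; FANCI, RAD54B and NBN had none. Only the first window listed for each gene was used, so other start sites were not searched. Some windows lie inside the annotated gene, among them that of RAD51B, without an E2F-type match, and that of FANCC, with matches. The window of BRCA1 (chr17:43170278-43170577), also without an E2F-type match, lies wholly outside the annotated gene (chr17:43044295-43170245). For such genes the absence of a match holds for the window searched only. Both strands were searched for the 3 E2F-type motifs TTTCGCGC, TTTGGCGC and TTTCCCGC. Of the 31 windows 4 held at least 1 of them (12.9%), against 763 of all 27305 windows (2.79%). The 27305 windows cover every symbol with a window, whether or not it was expressed in these cells. They were not matched to the 31 in gene type or base composition, so the 2 shares compare unlike sets. The motif CCAAT, bound by NF-Y, was in 12 of the 31 windows (38.7%) and in 35.7% of all windows, and TTTGAA, the CHR element of late cell cycle genes, was in 3 (9.68%) and in 15.4%. The 4 windows with an E2F-type match follow, each on the strand of its gene with the match in capitals. They lie at chr1:241847954-241848253 (EXO1, + strand), chr3:10026187-10026486 (FANCD2, + strand), chr7:152676092-152676391 (XRCC2, - strand) and chr9:95317660-95317959 (FANCC, - strand).
EXO1: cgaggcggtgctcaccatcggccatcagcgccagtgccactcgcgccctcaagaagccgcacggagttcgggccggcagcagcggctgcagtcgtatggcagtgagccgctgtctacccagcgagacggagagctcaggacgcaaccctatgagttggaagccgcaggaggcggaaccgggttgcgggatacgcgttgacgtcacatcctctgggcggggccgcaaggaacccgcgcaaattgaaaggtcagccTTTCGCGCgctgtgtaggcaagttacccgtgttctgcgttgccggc
FANCD2: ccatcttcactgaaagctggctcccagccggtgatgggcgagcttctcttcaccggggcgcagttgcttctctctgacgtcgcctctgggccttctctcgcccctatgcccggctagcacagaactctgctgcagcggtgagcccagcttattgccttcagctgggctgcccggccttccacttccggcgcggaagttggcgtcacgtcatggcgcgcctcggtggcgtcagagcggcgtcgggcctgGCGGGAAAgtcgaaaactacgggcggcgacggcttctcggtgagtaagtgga
XRCC2: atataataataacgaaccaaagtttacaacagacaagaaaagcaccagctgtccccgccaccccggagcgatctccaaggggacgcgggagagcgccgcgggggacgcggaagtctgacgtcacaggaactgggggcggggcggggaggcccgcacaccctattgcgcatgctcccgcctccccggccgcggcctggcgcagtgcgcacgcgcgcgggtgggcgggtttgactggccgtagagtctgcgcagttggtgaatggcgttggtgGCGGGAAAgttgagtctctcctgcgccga
FANCC: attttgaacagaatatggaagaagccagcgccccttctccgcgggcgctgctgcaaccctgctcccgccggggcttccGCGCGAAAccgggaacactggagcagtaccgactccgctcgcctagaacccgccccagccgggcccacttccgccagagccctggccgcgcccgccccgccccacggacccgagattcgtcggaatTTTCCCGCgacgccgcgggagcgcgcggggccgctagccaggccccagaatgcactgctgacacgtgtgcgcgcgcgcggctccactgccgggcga
The EXO1 match begins 4 bases after the start site, that of XRCC2 21 bases after it and that of FANCD2 2 bases before it, while FANCC has matches beginning 172 and 46 bases before it. By call, E2F-type motifs were in 4 of the 26 windows of genes that fell and in 0 of the 5 of genes not called, CCAAT in 9 of 26 and 3 of 5, and TTTGAA in 3 of 26 and 0 of 5. With 5 windows no difference can be read from these counts. A match is a description of these letters only, and no match in a window of this length says nothing about binding elsewhere.

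The libraries held 12149767 and 12894529 counts in the knockdown and 12701132 and 12938143 counts in NC. Levels are given below as CPM (counts divided by the library's effective total and put on one common scale), with edgeR's TMM factors setting the effective total, and with Knockdown-670 before Knockdown-732 and NC-1 before NC-2 wherever 2 values stand for a group. SBF2-AS1 itself had 15 and 18 counts in the knockdown libraries, against 57 and 79 counts in the NC libraries (log2 fold change -1.94, SE 0.30, edgeR adjusted p = 3.19e-05). All 9 epithelial and A549 markers listed, among them ALDH3A1, ALDH1A1 and KRT18, were expressed; 7 were lower and KRT19 was higher in the knockdown, with sums of 7598 and 7616 CPM in the knockdown libraries, against 13992 and 13429 CPM in the NC libraries. CDKN2A and CDKN2B, which A549 has lost, had 0 counts in every library. Immune markers summed to 14.9 and 14.97 CPM in the knockdown and to 17.9 and 14.7 CPM in NC, nearly all of it CD14 and ITGAM, while PTPRC, CD3E, LYZ and HLA-DRA had at most 2 counts in any library. Fibroblast markers summed to 11.03 to 13.7 CPM in the knockdown and 10.1 CPM in NC, and endothelial markers to 1.27 to 2.36 CPM in the knockdown and 3.02 to 3.17 CPM in NC.

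Of the 34 genes, 29 fell in the SBF2-AS1 knockdown and 5 missed the 0.05 threshold after Benjamini-Hochberg adjustment, by the quasi-likelihood test of edgeR over 16120 genes. Those 5 were FANCF, PALB2, RAD52, MUS81 and SLX4. Over all genes tested, 22.8% fell and 23.5% rose by the same test. None of the 34 rose, also at an unadjusted p under 0.05 (0 genes), and likewise 0 rose in DESeq2 and in limma-voom. The median log2 fold change of the 34 was -1.16, a level 55.2% lower, against a median of -0.002 over all genes tested. At least a 2-fold fall was called for 20 of the 34, against 4.63% of all genes. Both knockdown libraries lay below both NC libraries for 31 of the 34, against 36.2% of all genes; the exceptions were FANCF, MUS81 and SLX4. Since the genes were picked as a pathway, with results of these data already known, the counts are descriptions and carry no test over the list.

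**Figure D1:**
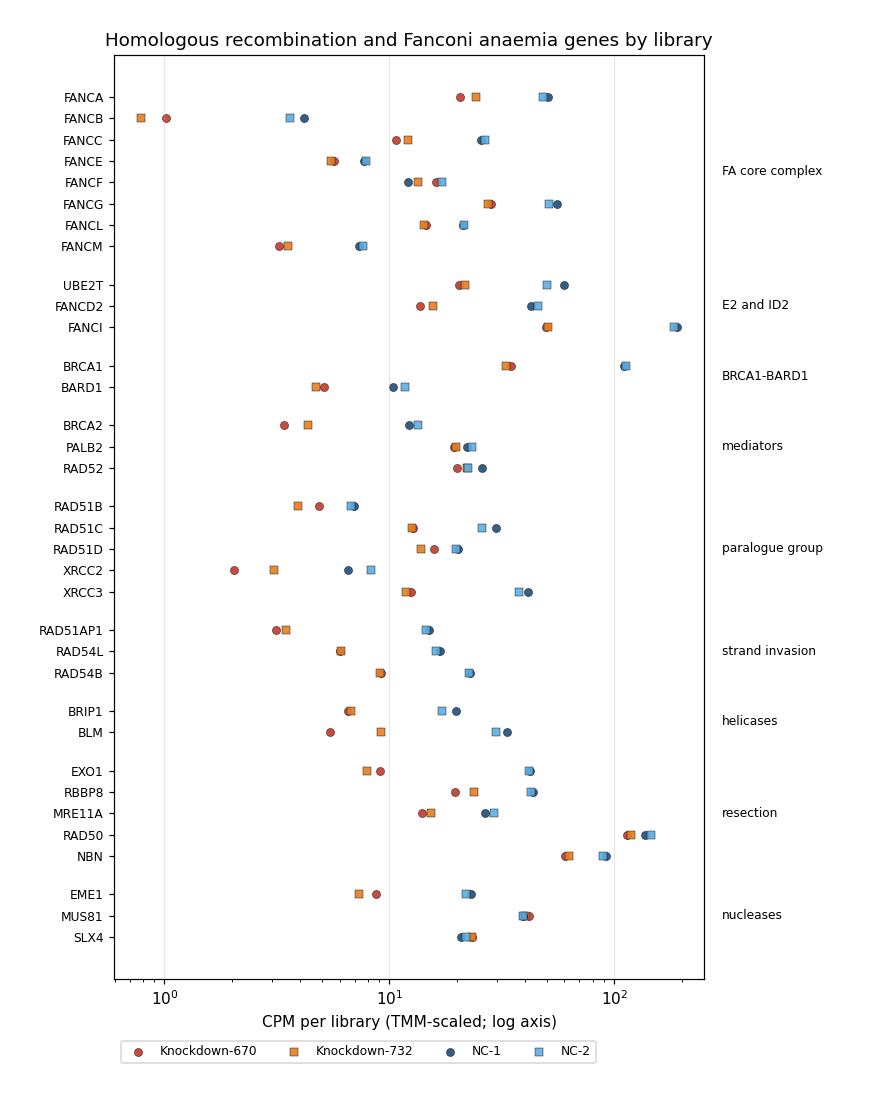
TMM-scaled CPM of each of the 34 genes in each library (log axis), grouped by role, with knockdown libraries in red and orange and NC libraries in blue. The knockdown points lie left of the NC points for 31 genes, and the groups overlap or lie the other way round for FANCF, MUS81 and SLX4.

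The core complex, which brings the ubiquitin ligase FANCL to a crosslink, fell in 7 of its 8 genes, with a median log2 fold change of -1.03 and a range of -2.10 to 0.01. FANCB, part of the catalytic module with FANCL, had 1.02 and 0.788 CPM in the knockdown libraries, against 4.17 and 3.63 CPM in the NC libraries. These rest on few reads, 12 and 10 counts in the knockdown libraries, against 54 and 48 counts in the NC libraries, but the groups are far apart (log2 fold change -2.10, SE 0.34, edgeR adjusted p = 5.82e-05). FANCB lies on the X chromosome (chrX:14835961-14873069, - strand, GRCh38, as for all gene positions below, from GENCODE v29). FANCL, the ligase itself, had 14.6 and 14.3 CPM in the knockdown libraries, against 21.3 and 21.5 CPM in the NC libraries (log2 fold change -0.57, SE 0.13, edgeR adjusted p = 0.00151). Both knockdown values of FANCL lie below both NC values. Its fall was not kept when a trend with GC content and transcript length was removed (log2 fold change -0.15, edgeR adjusted p = 0.357).

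FANCA, the subunit whose loss is the most frequent cause of Fanconi anaemia, had 20.6 and 24.3 CPM in the knockdown libraries, against 50.8 and 48.1 CPM in the NC libraries (log2 fold change -1.13, SE 0.11, edgeR adjusted p = 1.01e-07). Its partner FANCG, a scaffold for FANCA, had 28.4 and 27.5 CPM in the knockdown libraries, against 55.5 and 51.2 CPM in the NC libraries (log2 fold change -0.93, edgeR adjusted p = 2.92e-07). Mean levels were 54.5% lower for FANCA and 47.7% lower for FANCG, with no overlap of the groups. In the substrate-binding module FANCC had 10.7 and 12.1 CPM in the knockdown libraries, against 25.6 and 26.7 CPM in the NC libraries (log2 fold change -1.19, edgeR adjusted p = 7.83e-07). FANCE, which binds FANCD2 directly, had 5.69 and 5.52 CPM in the knockdown libraries, against 7.73 and 7.86 CPM in the NC libraries, a smaller fall whose adjusted p of 0.0454 was near the threshold (log2 fold change -0.48). The FANCE call was lost in 9 of 13 alternative analyses, with an edgeR adjusted p of 0.101 to 0.129 on leaving out any 1 library. FANCF, the adaptor that bridges this module to the rest, had 16.05 and 13.4 CPM in the knockdown libraries, against 12.1 and 17.1 CPM in the NC libraries. These values interleave, and the fitted log2 fold change of FANCF was 0.01 (95% interval -0.32 to 0.33, edgeR adjusted p = 0.975). Its sign turned without NC-1 (-0.22), without Knockdown-670 (-0.13) and with scaling by library size only (-0.056). FANCM, the translocase that anchors the complex on chromatin, had 3.23 and 3.55 CPM in the knockdown libraries, against 7.34 and 7.63 CPM in the NC libraries (log2 fold change -1.14, edgeR adjusted p = 2.45e-04).

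The ubiquitin step fell in all 3 of its genes. UBE2T, the E2 enzyme that works with FANCL (chr1:202331657-202341980, - strand), had 20.5 and 21.7 CPM in the knockdown libraries, against 59.5 and 50.1 CPM in the NC libraries (log2 fold change -1.38, SE 0.11, edgeR adjusted p = 9.91e-09). FANCD2 (chr3:10026414-10101930, + strand) had 13.7 and 15.6 CPM in the knockdown libraries, against 42.7 and 45.7 CPM in the NC libraries (log2 fold change -1.59, SE 0.12, edgeR adjusted p = 3.37e-09). FANCI, with which FANCD2 forms the clamp that is ubiquitinated (chr15:89243949-89317261, + strand), had 49.8 and 50.9 CPM in the knockdown libraries, against 190.3 and 184 CPM in the NC libraries (log2 fold change -1.89, SE 0.07, edgeR adjusted p = 9.98e-13). Neither FANCI nor the other genes of this step had overlapping groups. FANCD2 counts per FANCI count were 0.274 and 0.307 in the knockdown libraries, against 0.224 and 0.248 in the NC libraries; both knockdown ratios lie above both NC ratios.

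BRCA1 and BARD1 form the ubiquitin ligase that favours resection of broken ends, and both fell. BRCA1 (chr17:43044295-43170245, - strand) had 34.8 and 33.01 CPM in the knockdown libraries, against 111 and 112.2 CPM in the NC libraries (log2 fold change -1.72, SE 0.08, edgeR adjusted p = 1.11e-11). BARD1 (chr2:214725646-214809711, - strand) had 5.09 and 4.73 CPM in the knockdown libraries, against 10.4 and 11.8 CPM in the NC libraries (log2 fold change -1.17, SE 0.18, edgeR adjusted p = 3.69e-05). Neither gene's groups overlap. BARD1 counts per BRCA1 count were 0.146 and 0.143 in the knockdown libraries, against 0.0935 and 0.105 in the NC libraries, a higher ratio in both knockdown libraries.

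Of the 3 mediators only BRCA2 was called. BRCA2, the tumour suppressor at the centre of this step (chr13:32315474-32400266, + strand), had 3.40 and 4.33 CPM in the knockdown libraries, against 12.2 and 13.4 CPM in the NC libraries (log2 fold change -1.72, SE 0.19, edgeR adjusted p = 6.33e-07). PALB2, the bridge between BRCA1 and BRCA2 (chr16:23603160-23641310, - strand), had 19.4 and 19.7 CPM in the knockdown libraries, against 22.2 and 23.4 CPM in the NC libraries. Its groups do not overlap, but the difference was small and did not pass (log2 fold change -0.22, 95% interval -0.46 to 0.02, edgeR adjusted p = 0.155). RAD52, which anneals single strands and has an accessory part in human cells (chr12:912077-990053, - strand), had 19.95 and 22.2 CPM in the knockdown libraries, against 25.9 and 22.4 CPM in the NC libraries. The highest knockdown value of RAD52 and its lowest NC value nearly touch, and it did not pass (log2 fold change -0.19, 95% interval -0.44 to 0.06, edgeR adjusted p = 0.228). BRCA2 counts per PALB2 count were 0.175 and 0.220 in the knockdown libraries, against 0.551 and 0.573 in the NC libraries. For BRCA1 per PALB2 the ratio was 1.79 and 1.68 in the knockdown libraries, against 4.99 and 4.81 in the NC libraries. Both ratios to PALB2 were lower in both knockdown libraries, while BRCA1 counts per BRCA2 count were 10.2 and 7.62 in the knockdown libraries, against 9.07 and 8.39 in the NC libraries, with overlapping groups. None of the ratios between partner genes was tested.

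The 5 genes of the paralogue group, which assist strand pairing in the complexes RAD51B-RAD51C-RAD51D-XRCC2 and RAD51C-XRCC3, all fell. XRCC3 (chr14:103697609-103715504, - strand) had 12.5 and 11.9 CPM in the knockdown libraries, against 41.1 and 37.6 CPM in the NC libraries (log2 fold change -1.69, SE 0.12, edgeR adjusted p = 2.74e-09). XRCC2 had 2.04 and 3.07 CPM in the knockdown libraries, against 6.57 and 8.31 CPM in the NC libraries (log2 fold change -1.53, SE 0.25, edgeR adjusted p = 6.02e-05), with only 24 and 39 counts in the knockdown libraries. RAD51C, shared by both complexes, had 12.7 and 12.6 CPM in the knockdown libraries, against 29.9 and 25.7 CPM in the NC libraries (log2 fold change -1.13, SE 0.13, edgeR adjusted p = 1.38e-06). Their mean levels were 54.4% (RAD51C) to 69.0% (XRCC3) lower, with no overlap of the groups. RAD51B had 4.84 and 3.94 CPM in the knockdown libraries, against 6.96 and 6.73 CPM in the NC libraries (log2 fold change -0.64, edgeR adjusted p = 0.0176). RAD51D had 15.7 and 13.9 CPM in the knockdown libraries, against 20.3 and 19.8 CPM in the NC libraries (log2 fold change -0.44, edgeR adjusted p = 0.0116). It shares 905 of its 11304 exonic bases with RAD51L3-RFFL on the same strand, so its counts are uncertain there. RAD51L3-RFFL had 28.7 and 27.03 CPM in the knockdown libraries, against 25.6 and 28.7 CPM in the NC libraries. The calls of RAD51B and RAD51D were not firm, since RAD51B lost its call in 5 and RAD51D in 3 of 13 alternatives, both without Knockdown-732 (edgeR adjusted p = 0.118 and 0.0755).

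The 3 strand-invasion factors fell at least 2-fold. RAD51AP1, which promotes joint molecules (chr12:4538798-4560048, + strand), had 3.14 and 3.47 CPM in the knockdown libraries, against 14.999 and 14.6 CPM in the NC libraries (log2 fold change -2.16, SE 0.18, edgeR adjusted p = 2.07e-08). It was the second largest fall of the 34. The motor protein RAD54L had 6.03 and 6.07 CPM in the knockdown libraries, against 16.8 and 16.2 CPM in the NC libraries (log2 fold change -1.44, SE 0.16, edgeR adjusted p = 5.28e-07). Its relative RAD54B had 9.17 and 9.06 CPM in the knockdown libraries, against 22.7 and 22.7 CPM in the NC libraries (log2 fold change -1.32, SE 0.14, edgeR adjusted p = 3.64e-07). For all 3 the groups are far apart. RAD54B shares 3139 of its 5313 exonic bases with FSBP on the same strand, so its counts are uncertain where both genes could claim a read. FSBP was lower too, with 2.72 and 2.76 CPM in the knockdown libraries, against 5.95 and 5.37 CPM in the NC libraries (log2 fold change -1.04, edgeR adjusted p = 0.00158). The fall of RAD54B apart from that of FSBP was not tested.

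Both helicases fell. BLM, the Bloom syndrome helicase that dissolves double Holliday junctions (chr15:90717327-90816165, + strand), had 5.43 and 9.22 CPM in the knockdown libraries, against 33.2 and 29.8 CPM in the NC libraries (log2 fold change -2.09, SE 0.18, edgeR adjusted p = 3.65e-07). The 2 knockdown libraries of BLM differ 1.70-fold, the widest gap of any of the 34 between these libraries, yet both lie far below NC. The log2 fold change of BLM was -2.54 without Knockdown-732 and -1.77 without Knockdown-670. BRIP1, also called FANCJ, which unwinds DNA with BRCA1 (chr17:61681266-61863521, - strand), had 6.54 and 6.78 CPM in the knockdown libraries, against 19.9 and 17.2 CPM in the NC libraries (log2 fold change -1.47, SE 0.16, edgeR adjusted p = 3.80e-07). BLM works with TOP3A, RMI1 and RMI2, whose log2 fold changes were -0.30, -1.31 and -1.18, each past the threshold.

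All 5 resection genes were called lower, over a range from -2.30 to -0.28. EXO1, the exonuclease of long-range resection (chr1:241847967-241895148, + strand), showed the largest fall of the 34, with 9.09 and 7.96 CPM in the knockdown libraries, against 42.1 and 41.6 CPM in the NC libraries (log2 fold change -2.30, SE 0.13, edgeR adjusted p = 8.65e-11). The level in the knockdown was 79.6% lower. RBBP8, also called CtIP, which starts resection together with the MRE11 complex, had 19.6 and 23.7 CPM in the knockdown libraries, against 43.5 and 42.6 CPM in the NC libraries (log2 fold change -0.99, SE 0.11, edgeR adjusted p = 1.07e-06). The MRE11-RAD50-NBN complex senses breaks, and all 3 subunits were called lower; differences between them were not tested. The nuclease MRE11A had 14.01 and 15.4 CPM in the knockdown libraries, against 26.7 and 29.1 CPM in the NC libraries (log2 fold change -0.92, edgeR adjusted p = 9.69e-06). NBN had 60.5 and 62.7 CPM in the knockdown libraries, against 92.1 and 89.3 CPM in the NC libraries (log2 fold change -0.56, edgeR adjusted p = 1.05e-05). With the GC and length offset NBN stood at -0.29, near RAD50 at -0.25, and both were still called (edgeR adjusted p = 0.00247 for NBN and 0.00328 for RAD50). RAD50, the ATPase that tethers ends, had 113 and 119 CPM in the knockdown libraries, against 137 and 145 CPM in the NC libraries (log2 fold change -0.28, edgeR adjusted p = 0.00327). The fall of RAD50 is small but its groups do not overlap, and it was not called when tested against a 1.2-fold change (adjusted p = 0.35). MRE11A counts per RAD50 count were 0.124 and 0.129 in the knockdown libraries, against 0.194 and 0.200 in the NC libraries, and NBN per RAD50 0.534 and 0.528 in the knockdown libraries, against 0.670 and 0.615 in the NC libraries.

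**Figure D2:**
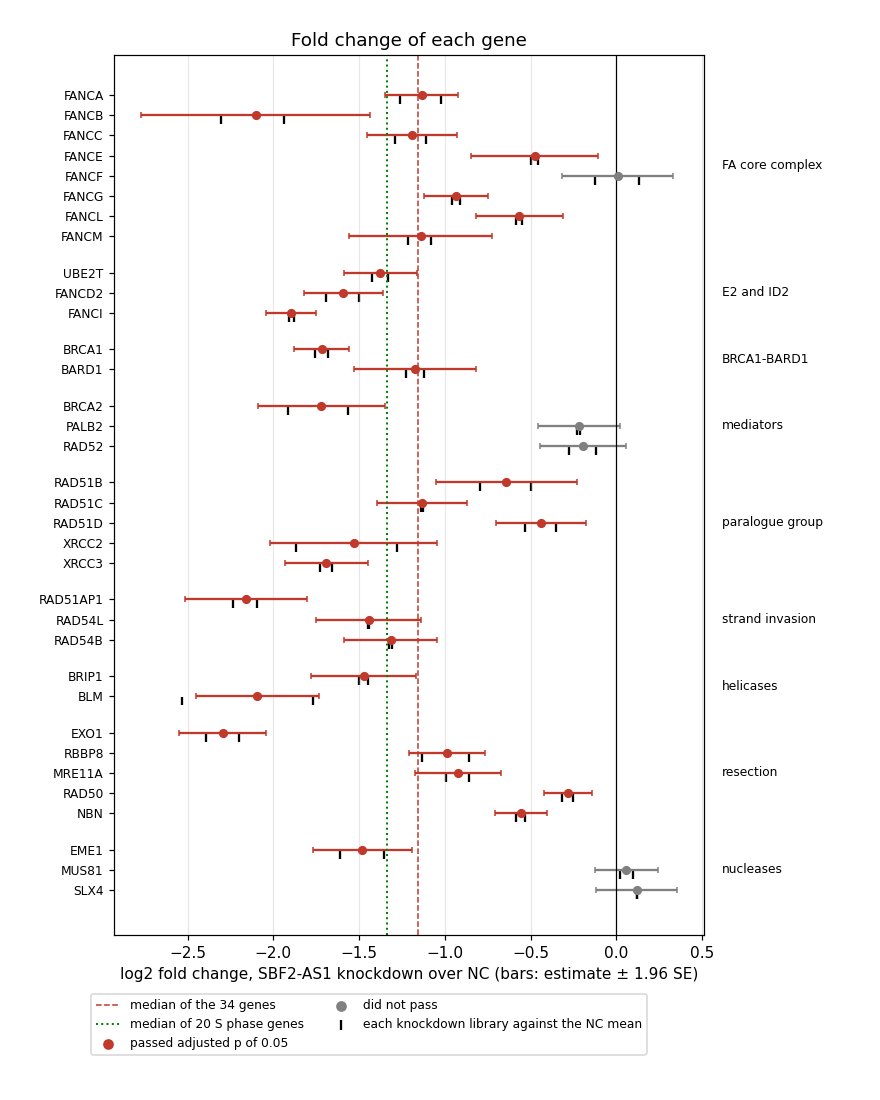
Log2 fold change of each gene, SBF2-AS1 knockdown over NC, with its approximate 95% interval; red points passed an adjusted p of 0.05 and grey points did not, and black ticks give each knockdown library against the NC mean. EXO1 lies lowest at -2.30, the 5 grey genes lie between -0.22 and 0.12, and the dashed and dotted lines mark the medians of the 34 genes (-1.16) and of 20 S phase genes (-1.33).

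Of the 3 nuclease genes 1 fell. EME1, the partner that gives MUS81 its activity on branched DNA in mitosis (chr17:50373220-50381483, + strand), had 8.75 and 7.33 CPM in the knockdown libraries, against 22.96 and 21.8 CPM in the NC libraries (log2 fold change -1.48, SE 0.15, edgeR adjusted p = 1.79e-07). MUS81, the catalytic subunit (chr11:65857126-65867653, + strand), had 41.9 and 39.9 CPM in the knockdown libraries, against 39.4 and 39.1 CPM in the NC libraries. Both knockdown values of MUS81 lie just above the NC values, and the difference did not pass (log2 fold change 0.06, 95% interval -0.12 to 0.24, edgeR adjusted p = 0.636). SLX4, the scaffold that holds MUS81-EME1, SLX1 and XPF (chr16:3581181-3611598, - strand), had 23.3 and 23.3 CPM in the knockdown libraries, against 20.9 and 21.99 CPM in the NC libraries (log2 fold change 0.12, 95% interval -0.12 to 0.36, edgeR adjusted p = 0.441). With a trend in GC content and length removed, MUS81 stood at -0.17 and SLX4 at -0.28, on the other side of 0 and again without a call, so no direction can be given for either. EME1 counts per MUS81 count were 0.209 and 0.184 in the knockdown libraries, against 0.583 and 0.558 in the NC libraries. EME2, the alternative partner of MUS81 and not among the 34, rose: it had 5.18 and 5.28 CPM in the knockdown libraries, against 2.55 and 2.49 CPM in the NC libraries (log2 fold change 1.05, SE 0.25, edgeR adjusted p = 0.00187). With the GC and length offset EME2 stood at 0.57 and was not called (edgeR adjusted p = 0.0711). EME2 per MUS81 was 0.123 and 0.132 in the knockdown libraries, against 0.0648 and 0.0637 in the NC libraries. EME1 had more counts than EME2 in all 4 libraries, but counts were not adjusted here for transcript length, so which partner was more abundant was not settled.

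**Figure D3:**
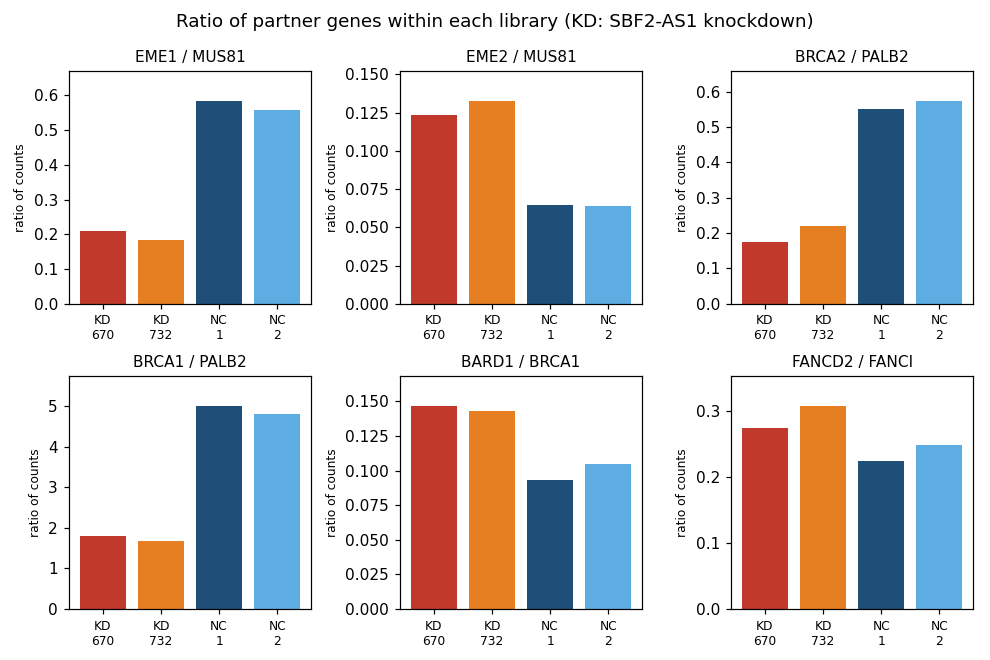
Ratio of read counts of partner genes within each library, knockdown libraries (red, orange) left of NC libraries (blue), with each axis starting at 0. EME1 per MUS81, BRCA2 per PALB2 and BRCA1 per PALB2 are lower in both knockdown libraries, and EME2 per MUS81, BARD1 per BRCA1 and FANCD2 per FANCI are higher.

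A further list of 75 genes of the same pathways, also chosen with earlier results of these data known, showed a more mixed picture than the 34. Of the 75, 42 were lower, 6 higher and 27 not called, beside 22.8% lower and 23.5% higher over all genes tested. The median log2 fold change of the 75 was -0.41. The 4 with the smallest p were MCM8, a helicase of recombination (log2 fold change -1.59, edgeR adjusted p = 3.43e-10), PSMC3IP, also called HOP2, which promotes strand exchange (log2 fold change -1.93, edgeR adjusted p = 9.15e-09), RPA2, the middle subunit of the single-strand binding complex (log2 fold change -2.04, edgeR adjusted p = 1.66e-08), and USP1, which removes ubiquitin from FANCD2 (log2 fold change -1.29, edgeR adjusted p = 3.41e-08). The other subunits RPA1 and RPA3 had log2 fold changes of -0.41 and -0.87, both called. The checkpoint kinase CHEK1 had 13.3 and 14.97 CPM in the knockdown libraries, against 32.01 and 35.7 CPM in the NC libraries (log2 fold change -1.26, edgeR adjusted p = 2.05e-07). ATR, the kinase that activates CHEK1, had 37.8 and 38.3 CPM in the knockdown libraries, against 38.7 and 40.1 CPM in the NC libraries (log2 fold change -0.05, edgeR adjusted p = 0.693). ATM, which starts the response to double-strand breaks, likewise did not pass (log2 fold change -0.08, edgeR adjusted p = 0.531).

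The 6 that rose were EME2, C1orf86, INTS3, C17orf70, ERCC1 and RECQL5. C17orf70, now called FAAP100, is the third subunit of the catalytic module with FANCB and FANCL; it had 36.3 and 38.5 CPM in the knockdown libraries, against 28.4 and 30.2 CPM in the NC libraries (log2 fold change 0.35, edgeR adjusted p = 0.00954). C1orf86, now FAAP20, which binds FANCA, had 12.1 and 13.2 CPM in the knockdown libraries, against 7.27 and 7.78 CPM in the NC libraries (log2 fold change 0.75, edgeR adjusted p = 8.64e-04). C19orf40, now FAAP24, which pairs with FANCM, was lower (log2 fold change -1.12, edgeR adjusted p = 1.31e-05). INTS3, a subunit of a sensor of single-stranded DNA and of Integrator, had a log2 fold change of 0.46, ERCC1, the partner of the nuclease XPF, of 0.29 and the helicase RECQL5 of 0.23. Of the 6, 3 were called higher when tested against a 1.2-fold change, and with the GC and length offset only INTS3 was (log2 fold change 0.25, edgeR adjusted p = 0.00701). With that offset C1orf86 stood at 0.38 (edgeR adjusted p = 0.0549) and C17orf70 at -0.039, on the other side of 0 (edgeR adjusted p = 0.774). SLX1A and SLX1B are near-identical copies whose reads cannot be assigned with certainty: SLX1B alone had 2.21 and 20.7 CPM in the knockdown libraries, against 3.32 and 5.74 CPM in the NC libraries, while both copies summed to 26.2 and 30.3 CPM in the knockdown libraries, against 48.6 and 44.4 CPM in the NC libraries.

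Genes of the competing pathway of end joining, which needs no sister chromatid, were lower in 5 of 11 cases and higher in none by edgeR (0 also at an unadjusted p under 0.05, and 0 called in DESeq2 and limma-voom), with a median of -0.34. Over all genes tested, 22.8% were lower and 23.5% higher. The 5 lower genes of end joining were XRCC5 (log2 fold change -0.77, edgeR adjusted p = 4.48e-08), PRKDC (-0.43), NHEJ1 (-0.79), XRCC6 (-0.34) and XRCC4 (-1.04), the last named being the only one with a 2-fold fall. The 34 genes were not tested against these lists.

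Markers of cycling cells moved in the same direction, while over all genes tested 22.8% were lower and 23.5% higher. All 20 S phase genes listed were lower, with a median log2 fold change of -1.33 and sums of 645 and 638 CPM in the knockdown libraries, against 1509 and 1464 CPM in the NC libraries. All 18 genes of G2 and M phase were lower, with a median of -1.63 and sums of 831 and 835 CPM in the knockdown libraries, against 2461 and 2481 CPM in the NC libraries. The log2 fold changes of smallest p were those of RRM1 (-1.98), MCM4 (-1.46), POLA1 (-1.85) and MCM7 (-1.22) among the S phase genes and of TPX2 (-1.77), TOP2A (-1.65), HMMR (-2.46) and CENPF (-1.64) among those of G2 and M phase. The 34 genes summed to 636 and 653 CPM in the knockdown libraries, against 1296 and 1277 CPM in the NC libraries. The part of these markers in the fall of the repair genes was not tested, and in bulk RNA fewer cells in S and G2 phase and less RNA of these genes per cell cannot be told apart.

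**Figure D4:**
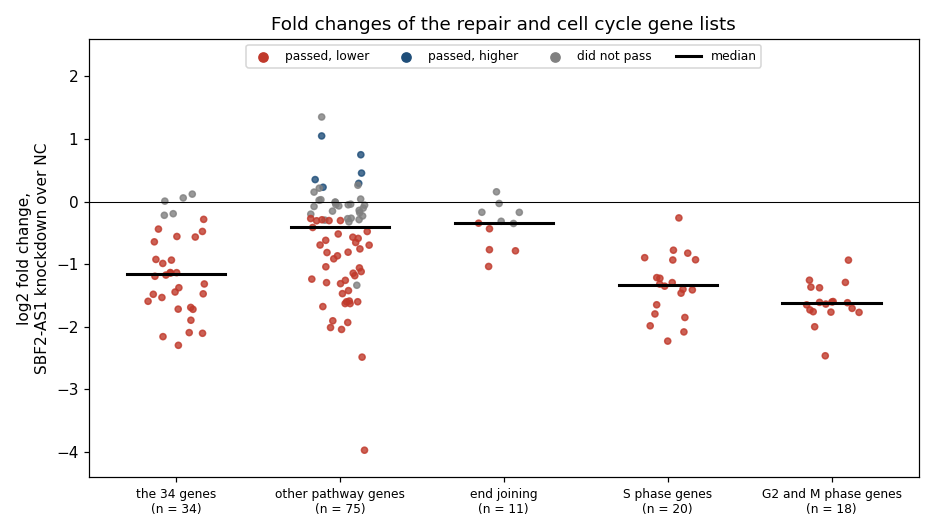
Log2 fold change, SBF2-AS1 knockdown over NC, of each gene (points) in 5 lists, with the median as a black line; red passed as lower, blue as higher, grey did not pass. The median is -1.16 for the 34 genes, -0.41 for the 75 other pathway genes, -0.34 for end joining, -1.33 for S phase and -1.63 for G2 and M phase genes.

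Levels of different genes were set side by side as CPM per kilobase of the longest GENCODE transcript. That transcript need not be the one expressed, so the order of genes depends on this choice. In the knockdown the order began with UBE2T (14.1 CPM per kb), RAD50 (13.98), NBN (12.6) and MUS81 (11.96), with FANCI (10.6) and FANCG (10.6) after them. In NC it began with FANCI (39.5 CPM per kb), UBE2T (36.6), FANCG (20.3) and NBN (18.5). FANCI and UBE2T did not differ beyond their spread in NC, with 40.1 and 38.9 CPM per kb for FANCI and 39.7 and 33.4 CPM per kb for UBE2T in the NC libraries. FANCI and FANCG likewise interleaved in the knockdown, with 10.5 and 10.7 CPM per kb for FANCI and 10.8 and 10.5 CPM per kb for FANCG. UBE2T and RAD50 did not differ beyond their spread in the knockdown either: UBE2T had 13.7 and 14.5 and RAD50 13.7 and 14.3 CPM per kb in the knockdown libraries. At the low end FANCB, BRCA2 and FANCM had 0.297, 0.322 and 0.476 CPM per kb in the knockdown and 1.28, 1.07 and 1.05 CPM per kb in NC. MUS81 had 11.96 CPM per kb in the knockdown and 11.5 CPM per kb in NC.

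The 2 knockdown libraries gave closely similar values, with medians of -1.24 (Knockdown-670) and -1.12 (Knockdown-732) for the log2 ratio of the 34 genes to the NC mean. The ratio of Knockdown-732 to Knockdown-670 had a median of 1.01 over the 34 genes and ran between 0.773 (FANCB) and 1.70 (BLM), and that of NC-2 to NC-1 had a median of 0.985 and ran between 0.842 (UBE2T) and 1.41 (FANCF). Across the 34 genes the log2 fold change had a Pearson correlation of 0.33 with the GC content of the longest transcript (n = 34 genes, which share their libraries), and of 0.03 with its length and 0.001 with the log2 level in NC. With annotation on GRCh38, 11 of the 34 shared at least 50 exonic bases with a gene on the opposite strand that the table also lists, and strand handling in the counting was not given in the sources used here. The largest such overlap was XRCC3 with KLC1, 5756 of 7507 exonic bases; KLC1 had 131 and 121 CPM in the knockdown libraries, against 111 and 115 CPM in the NC libraries (log2 fold change 0.16, edgeR adjusted p = 0.0761), so KLC1 did not pass. MUS81 shares 759 of its 5476 exonic bases with CFL1, the abundant actin-severing protein cofilin, which had 413 and 398 CPM in the knockdown libraries, against 826 and 879 CPM in the NC libraries (log2 fold change -1.07, edgeR adjusted p = 4.99e-10).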

How the data were processed

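Raw counts of 4 Ion Proton libraries, 1 row per gene symbol, were deposited by the authors in a single file, and the platform is given per the labels' protocols; the submitters' processing notes name GRCh37, while aligner, counter, gene models and strand handling were not given in the sources used here. Groups came from the sample titles (2 libraries each). Replicates differed by more than counting noise (chi-square per gene 3.95 in NC and 3.61 in the knockdown), so none was a copy. P-values measure the spread between these libraries, which may be technical.

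Counts were fitted over all 40205 symbols with edgeR 4.0.16 in R 4.3.3: filterByExpr (16120 genes), TMM, robust glmQLFit and glmQLFTest, with Benjamini-Hochberg adjustment at 0.05. SE is the log2 fold change over the root of F, and 95% intervals are the estimate with about 2 SE on each side. The common dispersion of edgeR corresponded to a coefficient of variation of 6.64% between libraries of a group. On simulated counts of 15884 genes, 67 were changed 1.5-fold, 67 were changed 2-fold and 66 were changed 4-fold. The test found 76.1% of those changed 1.5-fold and 98.5% of those changed 2-fold, and 7.11% of the 197 calls were unchanged genes. In the data a far larger share was called, with 22.8% lower and 23.5% higher. Whether the simulated percentages hold for the data, or for its scarcer genes, was not tested. Alternatives were other scalings and filters, DESeq2 1.42.0, limma-voom (limma 3.58.1), glmTreat, an offset for GC content and length (values for 91.2% of tested genes), and each library left out.

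Gene positions and lengths are those of GENCODE v29 on GRCh38, joined by symbol (28572 direct matches, 1281 by an older symbol), and promoter windows those of RefSeq on GRCh38.p14. Every one of the 34 genes is described; from each other list up to 4 called genes of smallest p and those called against the majority were named. The 34 genes and the lists were chosen with earlier results of these data known. RPA1, RPA3, CHEK1, ATR, ATM, TOP3A, RMI1, RMI2, C19orf40, SLX1A, SLX1B, XRCC4, the genes A549 lacks, the immune markers and the genes overlapping the 34 lie outside that rule and were picked with their values in view.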

Additional observations from a re-analysis of the deposited data

How the results depend on the processing

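The number of the 34 genes called lower was 29 in the analysis reported and 25 to 29 in the 13 alternatives; 0 were called higher in each. Of these, leaving out 1 library in turn gave 26 to 28 lower genes and a median log2 fold change of -1.25 to -1.13. The median was -1.16 in the analysis reported, -1.25 without Knockdown-732 and -0.96 with the offset for GC content and length; the other alternatives moved it by less than the spread between the knockdown libraries (SD 0.0806). Of 441 values of single genes under an alternative, 416 kept their direction and side of the threshold, 19 lost a call and 6 changed sign. The losses were in FANCE, FANCL, RAD51B, RAD51D and RAD50, and the other 24 called genes kept their call in every alternative that tested them; FANCB was not tested with the filter of 5 CPM. The sign changes were in genes without a call: FANCF stood at -0.056 with library size only, -0.22 without NC-1 and -0.13 without Knockdown-670 (-0.22 to 0.27 on leaving out any 1 library), MUS81 at -0.0039 with library size only and -0.17 with the GC and length offset, and SLX4 at -0.28 with that offset. The causes were not tested. No paired analysis was possible because the titles give the groups no shared replicate number. With 2 libraries a group and 10 to 54 counts per library behind FANCB, and 24 to 110 behind XRCC2, small differences of the scarcer genes were not detectable.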
